A study of Rattus norvegicus with 18 samples.

Results

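Ribosome biogenesis genes were examined in cultured rat bone marrow mesenchymal stem cells (MSCs). A gene was a member when its KEGG annotation in the deposited gene tables held the pathway for ribosome biogenesis in eukaryotes and not the pathway for the ribosome itself, which lists the ribosomal proteins. The rule gave 82 of the 32623 genes in the tables, and it used no measured value. RNA-seq was taken from MSCs of wild-type rats (WT-MSCs) and of miR-337-/- rats (KO-MSCs), all on the SD background and 2 months old. Cells of both genotypes were used at passage 3 after 8 h of serum starvation. They were then kept under serum starvation (SSt), given fetal bovine serum (FBS) or put under 10% cyclic mechanical stretch (CMS), for 24 h by the labels, while the study's methods name a shorter treatment. The comparisons ask how FBS and CMS change the cells relative to SSt and whether the loss of miR-337 alters that response. Each of the 6 groups had 3 libraries, and no source says whether these came from separate rats or cultures, so p-values measure only the spread between these samples. Depth was 56083000 to 71847969 counts per library.

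A cell builds its ribosomes in the nucleolus. RNA polymerase I makes a long precursor, on which the UtpA and UtpB complexes and the U3 particle assemble into the 90S pre-ribosome. Box C/D particles guide 2′-O-methylation of the precursor and box H/ACA particles guide pseudouridylation. RNase MRP and exonucleases cut and trim it, and both subunits mature separately before the exportin Xpo1 carries them with RanGTP through the nuclear pore. The genes of this pathway are usually most active in growing cells, and many of them are known targets of Myc.

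Some facts of the whole series bear on the reading of the labels. The 16 proliferation genes summed to 495 to 505 FPKM (fragments per kilobase of transcript and per unit of sequencing depth) in WT SSt, against 303 to 320 in WT FBS and 284 to 293 in WT CMS. They summed to 795 to 870 in KO SSt, against 135 to 267 in KO FBS and 117 to 141 in KO CMS. Cell cycle genes were thus highest in the libraries labelled SSt, the reverse of what starvation and serum usually do, and each direction below is that of the labels. The precursor gene Mir337 had a count of 0 in all 18 libraries, which cannot check the genotype. Replicate 1 of KO FBS and replicate 1 of KO CMS stood apart from their group mates, with a chi-square per degree of freedom of 55.8 to 147 against 18.6 to 30.3 in all other pairs. Of the 10 MSC markers, the receptor gene Lepr averaged 0.00728 FPKM, while Pdgfra, Pdgfrb, Thy1 and Col1a1 averaged 43.8 or more. The 10 summed to 1801 to 1840 FPKM in WT SSt, 2146 to 2313 in WT FBS and 1930 to 2014 in WT CMS. In KO-MSCs the sums were 2799 to 2913, 2688 to 3341 and 2564 to 3022, in the same order. Of the 9 that passed the filter below, 5 were higher and 4 lower in WT FBS at an adjusted p under 0.05, against 33.7% and 32.7% of all genes. All 8 macrophage markers were detected, and their sum was 2777 to 2936 FPKM in WT SSt and 5458 to 5978 in WT FBS and WT CMS. In KO-MSCs it was 1824 to 1939 in SSt and 3293 to 4353 with FBS or CMS. The single macrophage markers did not all follow the sum, with 5 higher and 1 lower in WT FBS and 4 and 3 in WT CMS. In KO-MSCs 6 were higher and 1 lower with FBS, and 5 and 3 with CMS. Among all genes 34.6% were higher and 32.3% lower in WT CMS, 30.3% and 29.5% in KO FBS, and 30.8% and 30.7% in KO CMS. The part of the macrophage signal in the results was not tested. Adipocyte markers also moved with treatment, from 17.6 to 27.01 FPKM in the 6 SSt libraries to 55.0 to 857 in the others. Osteoblast markers summed to 5.87 to 14.1 FPKM, endothelial markers to at most 2.23 and erythroid markers to at most 0.0491. In bulk RNA, fewer cells of a type and less RNA per cell cannot be told apart.

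As a group, the ribosome biogenesis genes were most abundant in KO SSt, next in WT SSt, and nearly level in the other 4 groups. They took 0.440% ± 0.0074 of all counts in KO SSt (SD, n = 3) and 0.358% ± 0.0025 in WT SSt. With FBS they took 0.308% ± 0.00071 in WT-MSCs and 0.310% ± 0.0046 in KO-MSCs. With CMS they took 0.304% ± 0.0026 and 0.298% ± 0.0019. Every SSt library of a genotype lay above all its FBS and CMS libraries, and the genotypes overlapped with FBS. On the log2(FPKM + 1) scale, the median member lay 0.168 to 0.171 below its own SSt mean in the 3 WT FBS libraries, and 0.198 to 0.206 below it in WT CMS. In KO-MSCs the median member lay 0.342 to 0.412 below with FBS and 0.430 to 0.471 below with CMS. Of the 74 genes that passed the filter below, 58 had their highest group mean in KO SSt and 32 their lowest in KO CMS.

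**Figure D1:**
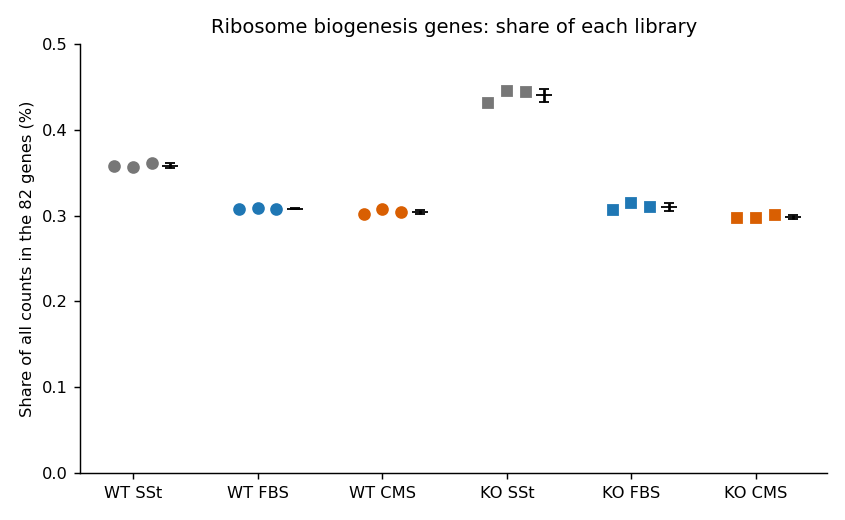
Share of each library's counts, in percent, that falls on the 82 ribosome biogenesis genes, by group. Points are the 3 libraries of a group, black bars give the mean and SD, circles are WT-MSCs and squares KO-MSCs. The KO SSt libraries lie highest at 0.432 to 0.445%, the WT SSt libraries at 0.356 to 0.361%, and all others at 0.297 to 0.315%.

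To test single genes, 74 of the 82 members passed a filter of at least 1 FPKM in at least 3 libraries of each genotype, and 69 of these reached 1 FPKM in every library. The 8 below the filter were Nxf2, Nxf3, Nxf7, RGD1306195, Fbll1, Rasl2-9, AABR07040617 and Rexo1l1-ps1. They are mostly relatives of widely expressed export or nucleolar genes, and 4 of them (Nxf3, Nxf7, RGD1306195 and AABR07040617) had a count of 0 in all 18 libraries. The mean FPKM of the 74 over all libraries ran from 1.20 to 255, with a median of 14.1.

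Both FBS and CMS libraries of WT-MSCs held less RNA of these genes than SSt libraries. With FBS, 42 of the 74 were lower and 7 higher at an adjusted p under 0.05, in edgeR's quasi-likelihood test with Benjamini-Hochberg adjustment over all 12916 genes tested. Of all those genes 32.7% were lower and 33.7% higher. The median log2 fold change was -0.23 for the 74 and 0.01 for all genes. With a fold of at least 1.5 as well, 11 were lower and 2 higher, against 14.3% and 16.8% of all genes. With CMS, 42 were lower and 8 higher, where 32.3% and 34.6% of all genes were, and the median was -0.22 against 0.02. There, 9 were lower and 2 higher by at least 1.5-fold, against 15% and 17% of all genes. The lower calls thus exceeded the background in number, lower calls of 1.5-fold or more lay near it, and higher calls lay below it.

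In KO-MSCs the same contrasts were larger. With FBS, 54 of the 74 were lower and 3 higher, against 29.5% and 30.3% of all 12888 genes tested, with a median log2 fold change of -0.40 against 0.02. By at least 1.5-fold, 19 were lower and 2 higher, against 14.6% and 17.4% of all genes. With CMS, 51 were lower and 5 higher, against 30.7% and 30.8%, and the median was -0.37 against -0.00 for all genes. By at least 1.5-fold, 19 were lower and 1 higher, against 16.7% and 17.7%. The genotypes share no library, so their calls can be set side by side. With FBS, 39 genes were lower in both, which is 92.9% of those in WT-MSCs and 72.2% of those in KO-MSCs. With CMS it was 36, or 85.7% and 70.6%. Over all 12610 genes tested in both genotypes, those lower in both made up 65.9% and 73.6% with FBS and 63.1% and 67% with CMS. FBS and CMS of one genotype share their SSt libraries, so their similarity to each other is not a separate result.

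The box C/D snoRNP, the particle that methylates ribosomal RNA, held the genes that fell most apart from the Nhp2 copies treated below, Nop56 in both WT contrasts and Nop58 in both KO contrasts. The scaffold protein gene Nop56 (ENSRNOG00000007128) had an FPKM of 40.6, 44.1 and 43.7 in WT SSt, 24.9, 24.2 and 25.3 in WT FBS, and 23.0, 22.7 and 22.3 in WT CMS. In KO-MSCs it had 58.7, 58.2 and 61.1 in SSt, 21.8, 27.04 and 23.7 with FBS, and 20.5, 20.8 and 21.6 with CMS. The SSt libraries of each genotype lay above all their FBS and CMS libraries, with no overlap, and those of KO-MSCs above those of WT-MSCs. Its log2 fold change was -0.82 with FBS and -0.94 with CMS in WT-MSCs, and -1.24 and -1.39 in KO-MSCs.

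The second scaffold gene, Nop58 (ENSRNOG00000016486), had 39.99, 41.3 and 41.2 FPKM in WT SSt, 25.1, 25.3 and 26.0 in WT FBS, and 24.4, 25.9 and 26.7 in WT CMS. KO SSt libraries had 65.2, 67.3 and 67.1, KO FBS 24.3, 29.7 and 25.8, and KO CMS 21.9, 21.6 and 20.6. WT and KO libraries overlapped with FBS and did not overlap in SSt or with CMS. In WT-MSCs it fell by 0.72 and 0.70 on the log2 scale with FBS and CMS, and in KO-MSCs by 1.26 and 1.53.

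Fbl, the methyltransferase fibrillarin, averaged 52.7 ± 1.72 FPKM in WT SSt and 78.0 ± 1.41 in KO SSt (SD, n = 3), and its group means with FBS or CMS lay between 32.6 and 36.2. Its log2 fold changes were -0.59 and -0.71 in WT-MSCs and -1.05 and -1.15 in KO-MSCs, with FBS and CMS in that order. Snu13, the most abundant of these genes and the one that binds the RNA's kink-turn, had smaller changes of -0.25 and -0.29 in WT-MSCs and -0.55 and -0.57 in KO-MSCs. All passed the test. The gene LOC100359574 is a near copy of Snu13 and may share its reads. With the counts of both added, the log2 fold changes were -0.24 and -0.28 in WT-MSCs and -0.55 and -0.55 in KO-MSCs.

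Among box H/ACA genes, Gar1 fell most of those that could be measured well. It averaged 7.47 ± 0.684 FPKM in WT SSt and 13.3 ± 0.520 in KO SSt, and 5.11 to 6.14 in the other groups (n = 3 each). The log2 fold changes were -0.58 and -0.50 in WT-MSCs and -1.05 and -1.18 in KO-MSCs. Dkc1, the pseudouridine synthase dyskerin, changed by -0.22 and -0.29 in WT-MSCs and -0.42 and -0.50 in KO-MSCs. Nop10, the most abundant member of the particle, changed by -0.27 and -0.30, and by -0.46 and -0.47. Nhp2 and its copy LOC103690013 are uncertain. One of them had a count of 0 in 6 libraries while the other held 944 to 3126 counts, and in each of the 6 the sum of both copies was below that of every group mate in which both were counted. Their summed counts carry that loss. They passed in all 4 contrasts with SSt, at log2 fold changes of -0.99 and -0.83 in WT-MSCs and -1.30 and -1.14 in KO-MSCs.

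**Figure D2:**
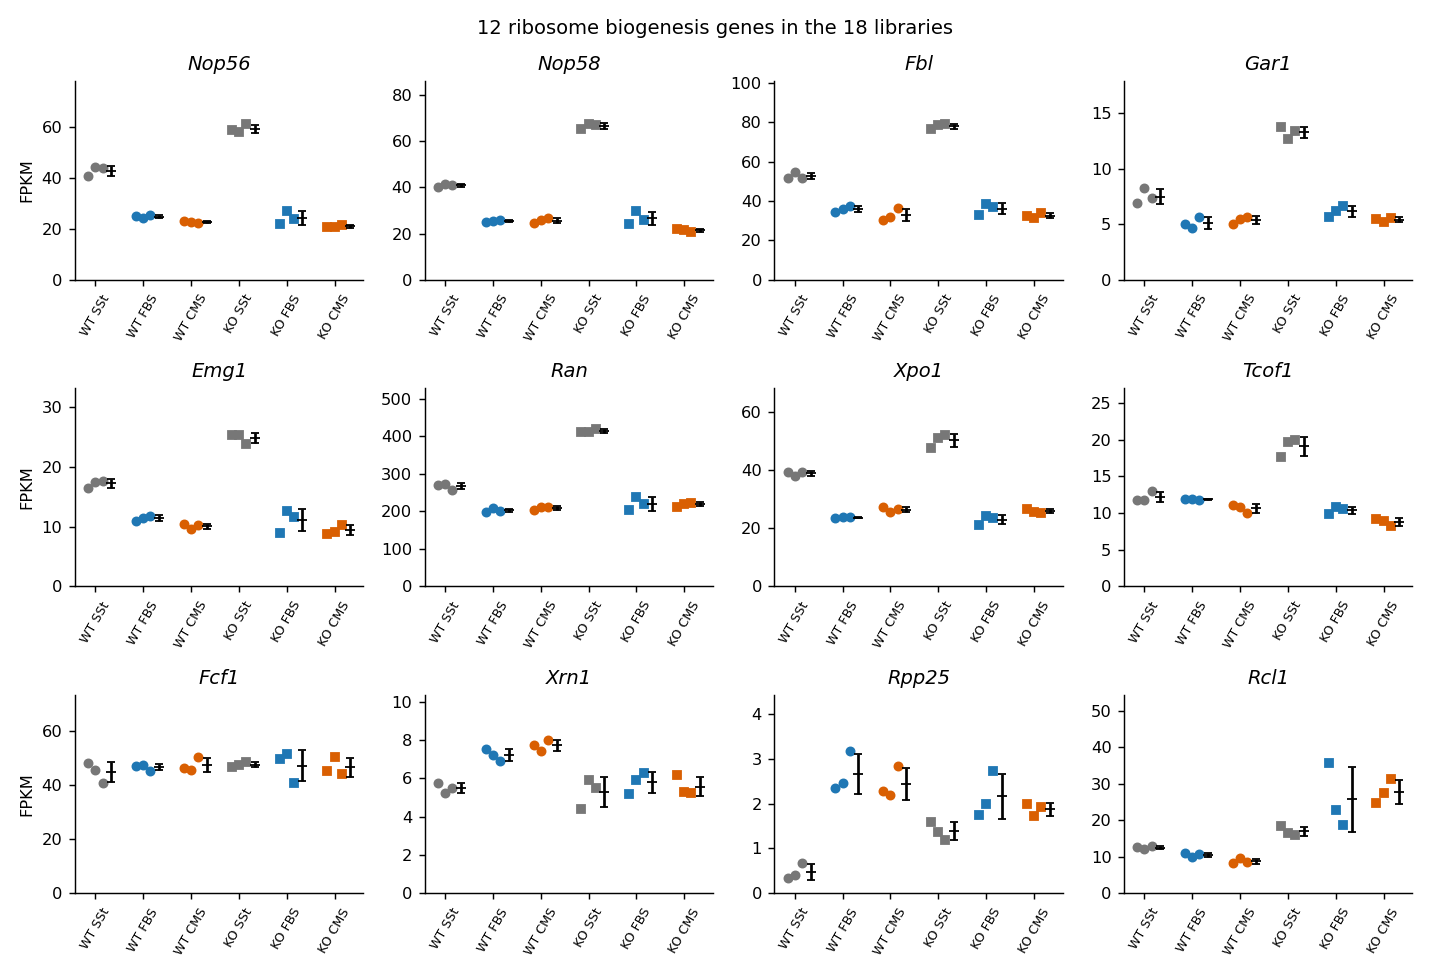
FPKM of 12 ribosome biogenesis genes in the 18 libraries, one panel per gene with its own linear axis from 0. Points are libraries (circles WT-MSCs, squares KO-MSCs; grey SSt, blue FBS, orange CMS) and black bars the mean and SD of 3. Nop56, Nop58, Fbl, Gar1, Emg1, Ran, Xpo1 and Tcof1 are highest in KO SSt, Fcf1 is nearly level at 40.7 to 51.5, and Xrn1, Rpp25 and Rcl1 take other courses.

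The UtpA and UtpB complexes, which bind the precursor first, moved as units of modest size. All 5 UtpA genes were lower in WT FBS and in both KO contrasts, and 4 of 5 in WT CMS. The exception was Wdr75, at -0.10. Lower calls took 32.7% of all genes in WT FBS, 32.3% in WT CMS, 29.5% in KO FBS and 30.7% in KO CMS. Utp4, the most abundant, had 21.97 ± 0.903 FPKM in WT SSt, 16.9 ± 0.509 in WT FBS and 16.6 ± 1.09 in WT CMS, and 27.1 ± 0.903, 17.9 ± 1.40 and 18.2 ± 0.248 in the KO groups (n = 3 each). All 6 UtpB genes were lower in WT CMS and both KO contrasts, and 5 of 6 in WT FBS, where Utp18 gave -0.25 and did not pass. Pwp2 had the largest change of the complex in WT FBS, -0.45, and was at -0.68 with FBS and -0.68 with CMS in KO-MSCs.

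Of the 8 genes of UtpC, the kinase CK2 and the Mpp10 complex, 6 were lower with FBS and 6 with CMS in WT-MSCs. In KO-MSCs 5 were lower with FBS, and with CMS 2 were lower (25%) and 1 higher. Among all genes, 32.7% and 32.3% were lower in WT-MSCs and 29.5% and 30.7% in KO-MSCs, with FBS and CMS in that order. The lower share with CMS in KO-MSCs thus lay near the background. The Mpp10 partner Imp3 averaged 15.4 ± 0.660 FPKM in WT SSt and 9.82 ± 0.570 in WT FBS, a log2 fold change of -0.69. In KO-MSCs it averaged 15.7 ± 0.861 and 12.1 ± 1.31, a log2 fold change of -0.32. In edgeR's test of the difference between genotypes, 0 of the 8 passed for FBS, Imp3 included, with 1 at an unadjusted p under 0.05, while DESeq2 gave 0 and limma 1. For CMS 3 passed in edgeR, Imp3, Csnk2a1 and Rrp7a, all with a lower value in WT-MSCs, as had 21.6% of all genes. DESeq2 gave the same 3, while limma gave 4, Imp3, Csnk2a1, Mphosph10 and Nol6, whose directions are not given here. In edgeR the differences of the 8 for CMS ran from -0.49 to 0.31, with 6 negative. The Rrp7a call was lost under 7 alternative settings and the Imp3 call under 1. Csnk2b, the CK2 regulatory subunit gene and the most abundant here, fell by 0.27 and 0.31 in WT-MSCs and by 0.28 with FBS in KO-MSCs. With CMS in KO-MSCs it was at -0.16 and did not pass.

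Of the 12 other 90S and 40S factors, in WT-MSCs 4 were lower (33.3%) and 1 higher with each treatment. Among all genes there, 32.7% were lower with FBS and 32.3% with CMS, so the lower share of this group lay at the background. In KO-MSCs 7 were lower with each, against 29.5% and 30.7% of all genes. There, 1 was higher with FBS and 2 with CMS, against 30.3% and 30.8%. Emg1, a methyltransferase that modifies the small-subunit RNA, had 16.4, 17.5 and 17.6 FPKM in WT SSt, 10.8, 11.5 and 11.8 in WT FBS, and 10.4, 9.53 and 10.2 in WT CMS. KO SSt libraries had 25.3, 25.3 and 23.8, KO FBS 8.99, 12.5 and 11.6, and KO CMS 8.70, 9.15 and 10.3. Its SSt libraries lay above all others of the genotype, and its log2 fold changes were -0.63, -0.80, -1.11 and -1.29 in the order WT FBS, WT CMS, KO FBS and KO CMS. Riok2, a kinase of the late pre-40S particle, followed at -0.67, -0.61, -0.87 and -0.85. Fcf1, the most abundant gene of the group, stayed between 0.02 and 0.08 in all 4 contrasts and passed in none.

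Tcof1, whose product treacle serves ribosomal DNA transcription, differed clearly between the genotypes. It had 11.7, 11.8 and 13.0 FPKM in WT SSt, 11.9, 11.98 and 11.8 in WT FBS, and 11.1, 10.8 and 9.97 in WT CMS. In KO-MSCs it had 17.6, 19.7 and 20.01 in SSt, 9.84, 10.8 and 10.6 with FBS, and 9.26, 8.89 and 8.26 with CMS. WT libraries overlapped between SSt and FBS, while KO SSt stood well above the rest. Its log2 fold change with FBS was -0.08 ± 0.0538 (SE, adjusted p = 0.245) in WT-MSCs and -0.82 ± 0.0628 (adjusted p = 8.73e-06) in KO-MSCs.

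Rcl1, a factor of early cleavage in the 18S pathway, went in opposite directions. It averaged 12.5 ± 0.457 FPKM in WT SSt, 10.6 ± 0.540 in WT FBS and 8.84 ± 0.680 in WT CMS, and fell by 0.27 and 0.53 on the log2 scale. In KO-MSCs it had 18.4, 16.7 and 15.9 FPKM in SSt, 35.8, 22.8 and 18.8 with FBS, and 24.7, 27.5 and 31.3 with CMS. The KO changes of 0.67 and 0.82 passed the test, with no overlap between SSt and either treatment. The value of 35.8 belongs to the KO FBS library that stood apart. Without that library and the KO CMS one that stood apart, the change was 0.33 with FBS and 0.91 with CMS, both past the test. With all libraries, the FBS call was lost when any 1 KO SSt library was left out or the 2 groups were fitted alone, at adjusted p of 0.0515 to 0.088.

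RNase P and RNase MRP, which cut tRNA and ribosomal RNA precursors, share most of their proteins. Of their 9 genes, 4 were lower and 2 higher with each treatment in WT-MSCs. In KO-MSCs 6 were lower with each, and 1 was higher with FBS and 2 with CMS. Lower were 32.7% and 32.3% of all genes in WT-MSCs and 29.5% and 30.7% in KO-MSCs, with FBS and CMS in that order. The common subunit genes Pop1 and Pop4 fell in all contrasts with SSt. Pop1 fell by 0.48 and 0.45 in WT-MSCs and 0.99 and 0.99 in KO-MSCs, and Pop4 by 0.61, 0.56, 0.94 and 1.02. Rpp38 changed less in KO-MSCs, at -0.47 and -0.34, than the -0.74 and -0.68 of WT-MSCs, a difference that did not pass the test between genotypes. Rpp25 was the member that rose most in both WT contrasts and in KO FBS. It had 0.332, 0.409 and 0.678 FPKM in WT SSt, 2.35, 2.47 and 3.17 in WT FBS, and 2.27, 2.19 and 2.84 in WT CMS. In KO-MSCs it had 1.59, 1.37 and 1.20 in SSt, 1.75, 2.00 and 2.73 with FBS, and 1.98, 1.71 and 1.92 with CMS. Its WT SSt libraries lay below all others, and it passed the filter in WT-MSCs only through FBS and CMS. Its log2 fold changes were 2.43 and 2.32 in WT-MSCs and 0.69 and 0.54 in KO-MSCs, from low levels. The last of these, at an adjusted p of 0.0426, did not pass under 11 alternative settings, at adjusted p of 0.0548 to 0.135.

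Of the 6 nucleases that degrade or trim RNA, 3 were higher and 1 lower with FBS in WT-MSCs and 2 were higher with CMS, where 33.7% and 34.6% of all genes were higher. Xrn1, the main cytoplasmic 5′ to 3′ exonuclease, rose from 5.50 ± 0.251 FPKM in WT SSt to 7.22 ± 0.301 with FBS and 7.73 ± 0.284 with CMS, and Drosha, the nuclease that also cuts microRNA precursors, from 10.9 ± 0.364 to 13.8 ± 0.438 and 14.2 ± 0.353 (n = 3 each). In KO-MSCs neither passed, with Xrn1 at 0.19 and 0.19 and Drosha at -0.08 and 0.05. There, 2 of the 6 were lower with FBS and 4 with CMS, Xrn2 and Rexo2 in both, against 29.5% and 30.7% of all genes.

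Of the 13 factors of the large subunit, 7 were lower in WT-MSCs with each treatment, with 1 higher under FBS and 2 under CMS. In KO-MSCs 11 were lower with FBS and 8 with CMS. The shares of all genes that were lower were 32.7% and 32.3% in WT-MSCs and 29.5% and 30.7% in KO-MSCs, in the same order. Rbm28 fell most in WT FBS, by 0.70, and was at -0.69, -0.72 and -0.63 in the other contrasts. Eif6, the factor that keeps subunits apart and the most abundant of the group, averaged 74.1 ± 2.76 FPKM in WT SSt, 50.4 ± 2.67 with FBS and 48.7 ± 1.96 with CMS. In KO-MSCs it averaged 84.7 ± 3.51, 58.4 ± 7.31 and 69.7 ± 8.09, with wide spread between libraries. Its KO change passed with FBS, at -0.47, and not with CMS, at -0.17.

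For nuclear export, the small GTPase gene Ran was the most abundant of all members. It had 270.4, 273.5 and 258 FPKM in WT SSt, 199.5, 208 and 200.5 in WT FBS, and 203, 211 and 211 in WT CMS. In KO-MSCs it had 411, 411 and 419 in SSt, 203, 239 and 219 with FBS, and 213, 220 and 224 with CMS. SSt libraries stood above all others of their genotype, and its log2 fold changes were -0.44, -0.38, -0.85 and -0.81 in the order WT FBS, WT CMS, KO FBS and KO CMS. Xpo1 gave -0.75, -0.58, -1.07 and -0.85. Nxf1, which exports messenger RNA, was at -0.05 with FBS in WT-MSCs and did not pass, fell by 0.16 with CMS, and in KO-MSCs rose by 0.21 with FBS and fell by 0.21 with CMS.

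**Figure D3:**
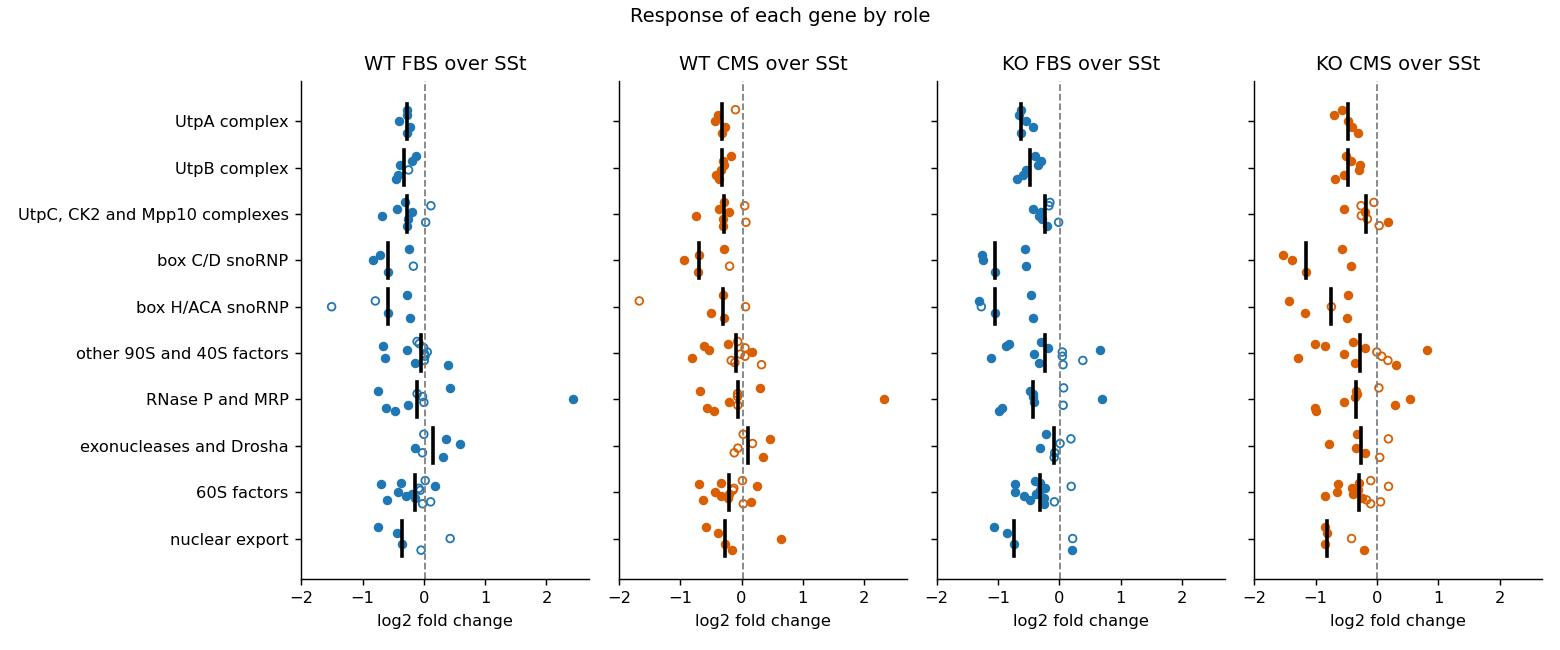
Log2 fold change over SSt of the 74 ribosome biogenesis genes that passed the filter, by role, in WT-MSCs (left pair of panels) and KO-MSCs (right pair). Filled points passed the test at an adjusted p under 0.05, open points did not, black bars are group medians and the dashed line is the median of all genes tested. The box C/D medians lie lowest in WT FBS and WT CMS, at -0.59 and -0.70, and reach -1.05 and -1.15 in KO-MSCs. The box H/ACA medians lie level with them under FBS, at -0.58 in WT-MSCs and -1.05 in KO-MSCs. With CMS the box H/ACA medians are -0.30 and -0.74. The nuclease medians in WT-MSCs are 0.15 and 0.10.

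CMS and FBS left these genes at nearly the same level. In WT-MSCs, CMS over FBS gave 1 higher and 2 lower of 74, against 3.91% and 5.03% of all genes. Xpo1 was higher by 0.17, and Nxf1 and Rcl1 were lower by 0.11 and 0.25 on the log2 scale. The Nxf1 call was lost under 8 alternative settings and the Rcl1 call under 7, most of them with 1 library left out, at adjusted p of 0.0518 to 0.115 and 0.0598 to 0.127. In KO-MSCs it gave 4 higher and 4 lower, against 6.73% and 8.09% of all genes. When libraries were scaled by their total counts alone, the KO split was 1 higher and 6 lower. Without replicate 1 of KO FBS it was 8 higher and 5 lower, and without replicate 3 of KO CMS it was 1 and 1, so the split depends on single libraries. Higher were LOC108348069, the UtpA gene for HEAT repeat-containing protein 1, by 0.31, Xpo1 by 0.22, and the CK2 catalytic subunit genes Csnk2a1 and Csnk2a2 by 0.23 and 0.19. Lower were the exonuclease gene Rexo5 by 0.80, Nxf1 by 0.42, and Nop58 and the nucleostemin gene Gnl3 by 0.27 each. The Csnk2a2 call was lost under 10 alternative settings and the Xpo1 call under 7. Those of Nop58 and Gnl3 were lost under 6 each, that of Rexo5 under 5 and that of LOC108348069 under 2.

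KO-MSCs and WT-MSCs differed most under SSt. There 38 of the 74 were higher and 2 lower in KO-MSCs, against 24.2% and 23.2% of all 13317 genes tested, and the median log2 difference was 0.24 for members and 0.02 for all genes. Leaving out 1 library at a time gave 28 to 34 higher. All 5 tested box C/D genes were higher, Nop58 by 0.63 and Fbl by 0.49, and 7 of 9 RNase P and MRP genes. Gar1 was higher by 0.75, Tcof1 by 0.57, Ran by 0.56 and Wdr36 by 0.46. Rpp25 was higher by 1.46, but its WT SSt libraries all lay below 1 FPKM, so it passed the filter only through other groups. The lower ones were Nxf1 and Csnk2a1, by 0.23 and 0.17. With a fold of at least 1.5 as well, 3 of the 74 were higher and 0 lower, against 958 and 1197 of all 13317 genes. The excess of higher calls thus did not hold at that fold.

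With FBS, 7 members were higher and 5 lower in KO-MSCs, against 13.5% and 12.3% of all genes. With CMS, 11 were higher and 10 lower, against 18.7% and 21%. These shares are near the background. With libraries scaled by total counts alone, the splits were 6 and 6 with FBS and 5 and 15 with CMS, so the balance with CMS depends on the scaling. Leaving out replicate 3 of KO CMS gave 7 and 6 with CMS. Rcl1 was the farthest apart, 1.32 higher in KO-MSCs with FBS and 1.72 with CMS on the log2 scale. Eif6 was higher by 0.58 with CMS, Drosha was lower by 0.25 with FBS, as were the midasin gene (ENSRNOG00000047513) by 0.32 and LOC108348069 by 0.23, Rrp7a was higher by 0.25 and 0.33, and Gnl3 was lower by 0.25 with CMS.

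The test of the response itself, WT minus KO, gave 23 members with a higher value in WT-MSCs and 3 with a lower one for FBS, against 17.2% and 18.5% of all genes. For CMS it gave 28 and 6, against 23.2% and 21.6%. A higher value here means that the gene fell less, or rose more, in WT-MSCs. With library totals alone the counts were 42 and 2 for FBS and 45 and 3 for CMS, while the median of all genes moved to 0.12 and 0.19. The SSt libraries enter both this test and the comparison of genotypes under SSt, so the 2 are not separate results. The 5 smallest adjusted p were those of Tcof1, Nop58, Ran, Wdr43 and Xpo1 for FBS, with log2 differences of 0.73, 0.53, 0.40, 0.37 and 0.30. For CMS they were those of Nop58, Tcof1, Ran, Gnl3 and Wdr75, with 0.83, 0.78, 0.42, 0.51 and 0.46. Rcl1 had the opposite sign, -0.95 and -1.35, and the first was -0.61 without replicate 1 of KO FBS. With a fold of at least 1.5 as well, the FBS counts were 2 and 1, against 1039 and 1258 of all 13317 genes. Those for CMS were 6 and 1, against 1593 and 1522.

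**Figure D4:**
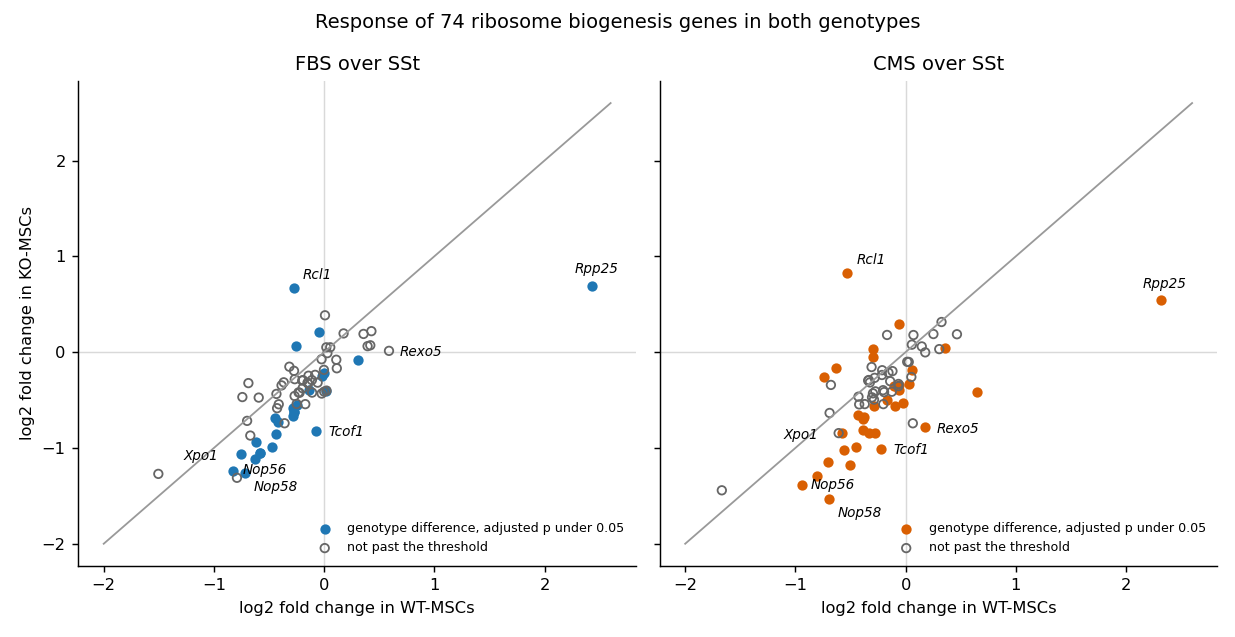
Log2 fold change over SSt in WT-MSCs (x axis) and KO-MSCs (y axis) for the 74 genes, with FBS on the left and CMS on the right. Each point is a gene, the grey diagonal marks equal responses, and filled points differ between genotypes at an adjusted p under 0.05. Most filled points lie below the diagonal, with Rcl1 above it and Rpp25 far to the right.

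Genes of ribosome production outside the KEGG entry are given for context. Of all genes tested, 32.7% were lower in WT FBS, 32.3% in WT CMS, 29.5% in KO FBS and 30.7% in KO CMS. Higher were 33.7%, 34.6%, 30.3% and 30.8%, in the same order. Of 44 nucleolar and 60S factors, 32 were lower and 1 higher in WT FBS, 30 and 2 in WT CMS, and 37 were lower in KO FBS and 35 in KO CMS. Under SSt, 37 were higher in KO-MSCs than in WT-MSCs, against 24.2% of all genes. Ncl (nucleolin) changed by -0.51 and -0.53 in WT-MSCs and -1.001 and -0.956 in KO-MSCs, and Lyar by -1.30, -1.24, -1.51 and -1.58. Of 15 genes of RNA polymerase I and its factors, 7 were lower and 2 higher in WT FBS, 6 and 3 in WT CMS, 9 were lower in KO FBS and 8 in KO CMS. Cd3eap, a polymerase I subunit gene, fell by 0.96 and 0.98 in WT-MSCs and 1.41 and 1.57 in KO-MSCs, and the gene of the largest subunit, Polr1a, rose by 0.58 in WT FBS. Of 14 exosome genes, 7 were lower in WT FBS, 4 in WT CMS, 11 in KO FBS and 13 in KO CMS, and 1 was higher in WT CMS. Myc fell by 0.30 and 0.66 in WT-MSCs and by 1.03 and 1.15 in KO-MSCs, and was 0.54 higher in KO SSt than in WT SSt. Of the 10 tested genes of its network, Myc included, 4 were higher and 4 lower in WT FBS, and 5 and 4 in WT CMS. In KO FBS 5 were higher and 2 lower, and in KO CMS 4 and 1, where the 1 lower was Myc itself. The WT FBS shares of this network, 40% each way, lay near those of all genes. Mnt, a repressor of Myc targets, had the largest rise of the network in WT FBS, 1.07, and rose by 1.01 in KO FBS. The largest fall of the network in WT FBS was -1.12, in a gene other than Myc. Of the 16 proliferation genes, 15 were lower with FBS and 15 with CMS in WT-MSCs and all 16 in both KO contrasts. Their median log2 fold changes were -0.92, -1.04, -1.97 and -3.18.

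Myc binds the E-box CACGTG, a palindrome that reads the same on both strands. RefSeq promoters of the rat build GRCr8, 250 bases before to 50 after the start of each gene, were matched to 64 of the 82 members by symbol or older symbol. The E-box stood in 17 of them, or 26.6%, against 6.42% of all 33469 promoters in the table. Among tested genes with a promoter, it stood in 15 of 59 members (25.4%), against 9.44% of 8971 other genes. It stood in 14 of 41 promoters of the nucleolar and 60S factors (34.1%) and 1 of 14 of the polymerase I list (7.14%). Upstream stretches of 5 members, among them the UtpA genes Wdr75 and Utp4, are shown with the E-box in capitals. They are followed by the 60 bases just before the start of the box C/D genes Nop56 and Nop58, whose promoters held none.
Ran, chr12:33314448-33314507, minus strand: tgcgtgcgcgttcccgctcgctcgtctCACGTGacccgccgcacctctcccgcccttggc
Wdr75, chr9:55395045-55395104, plus strand: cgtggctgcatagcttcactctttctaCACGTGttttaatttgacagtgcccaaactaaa
Riok2, chr1:66776066-66776125, plus strand: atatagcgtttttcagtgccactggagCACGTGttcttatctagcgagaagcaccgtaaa
Gnl3, chr16:6219783-6219834, minus strand: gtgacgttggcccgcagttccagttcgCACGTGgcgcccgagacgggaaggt
Utp4, chr19:51702189-51702240, plus strand: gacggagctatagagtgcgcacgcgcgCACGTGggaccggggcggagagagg
Nop56, chr3:137930119-137930178, plus strand: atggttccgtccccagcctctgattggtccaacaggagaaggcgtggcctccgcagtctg
Nop58, chr9:68615014-68615073, plus strand: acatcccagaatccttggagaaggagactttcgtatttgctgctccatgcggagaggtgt

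The E-box began 190 bases before the start in Ran, 160 in Wdr75, 122 in Riok2 and 25 in both Gnl3 and Utp4. Of the 59 tested members with a promoter, 15 held it. In WT FBS 11 of the 15 were lower and 0 higher, and of the 44 without it 24 were lower and 6 higher. The median log2 fold changes were -0.27 and -0.19. In KO FBS 12 of the 15 were lower and 1 higher, and of the 44 without it 31 were lower and 2 higher. The medians there were -0.47 and -0.33. With CMS the medians were -0.33 and -0.21 in WT-MSCs and -0.46 and -0.37 in KO-MSCs. Fbl, among the genes that fell most, held the motif 22 bases after its start. Rcl1, which rose in KO-MSCs, held it 12 bases after its start. No test was made of these splits.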

How the data were processed

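RNA-seq of WT-MSCs and KO-MSCs under SSt, FBS and CMS gave 18 libraries, 3 per group. The authors deposited 1 table per genotype with the read count and the FPKM of each gene in each library. In the deposited FPKM columns a small constant stands where the count is 0. Bowtie 0.12.2 and a mouse build stand in the processing notes of the submitters, while the gene identifiers are those of rat Ensembl, so no position from the files was used. The strand setting was not stated.

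Groups were taken from the sample labels. The members, the lists of other genes and the tests were chosen with earlier results of these data known. Counts were tested with edgeR 4.0.16 (quasi-likelihood, TMM scaling) in R 4.3.3, on genes of at least 1 FPKM in at least 3 of the libraries fitted, with Benjamini-Hochberg adjustment over all of them. A gene passed at an adjusted p under 0.05, and folds of at least 1.5 were counted beside this. Contrasts within a genotype used its 9 libraries, and comparisons of genotypes and of responses used all 18. Genotype coincides with the deposited table, and these cannot be told apart. Standard errors are those of the log2 fold changes. Genes were named by role as the most abundant and most changed, by the 5 highest and lowest changes per contrast with SSt, and by the 5 smallest adjusted p of the other comparisons. A few others were named after their values were seen. Alternatives used DESeq2 1.42.0, limma 3.58.1 on log2(FPKM + 1) and log2(FPKM + 0.1), other filters, a replicate block and libraries left out. The pipeline was tested on simulated data. Tables and plots were made with Python 3.11.15, pandas 2.3.3, numpy 2.4.6 and matplotlib 3.10.9. Promoters came from RefSeq (GRCr8), and 18 members without one were not searched.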

Additional observations from a re-analysis of the deposited data

Results flagged for a closer look

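Members whose response differed between WT-MSCs and KO-MSCs by a test of the difference itself (edgeR's interaction term, WT minus KO, adjusted p under 0.05 over all genes) are given here on the log2 scale. For FBS the differences were 0.73 for Tcof1, 0.53 for Nop58, 0.40 for Ran, 0.37 for Wdr43 and 0.30 for Xpo1. Rpp25 differed by 1.73, from low levels, and Rcl1 by -0.95, which was -0.61 and still past the test without replicate 1 of KO FBS. For CMS they were 0.83 for Nop58, 0.78 for Tcof1, 0.42 for Ran, 0.51 for Gnl3, 0.46 for Wdr75 and 0.68 for Gar1. Rpp25 differed by 1.77, again from low levels, Rexo5 by 0.96, Nxt2 by 1.06 and Rcl1 by -1.35. All WT SSt libraries lay below 1 FPKM for Rpp25. Nxt2 averaged 1.20 FPKM, and its call was lost without replicate 2 of WT CMS, replicate 1 of KO SSt or replicate 3 of KO SSt, at adjusted p of 0.0515 to 0.056. The SSt libraries of a genotype enter both of its responses, so the FBS and CMS differences of a gene are not separate results.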

How the results depend on the processing

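Counts of ribosome biogenesis genes are given as higher and lower, and no named gene changed sign under a call. Requiring a fold of at least 1.5 gave 2 and 11 in WT FBS, 2 and 9 in WT CMS, 2 and 19 in KO FBS, 1 and 19 in KO CMS, 0 and 0 in WT CMS over FBS, 0 and 1 in KO CMS over FBS, 3 and 0 for KO over WT in SSt, 1 and 0 with FBS, 1 and 1 with CMS, and 2 and 1 and 6 and 1 for the FBS and CMS responses. Among all genes, that fold gave 29 and 105 of 12916 in WT CMS over FBS and 215 and 516 of 12888 in KO CMS over FBS. Of all 13317 genes it gave 958 and 1197 for KO over WT in SSt, 647 and 500 with FBS, and 871 and 1145 with CMS. For the responses it gave 1039 and 1258 with FBS and 1593 and 1522 with CMS. The shares for the contrasts with SSt are given above. A filter of 5 FPKM gave 4 higher in WT FBS, 5 in WT CMS and 3 in KO CMS. No filter gave 3 higher in KO CMS and 0 lower in WT CMS over FBS. The 2 groups alone gave 0 lower in WT CMS over FBS and 1 and 1 in KO CMS over FBS. Library totals alone gave 1 higher in KO CMS, 1 higher in KO CMS over FBS, 1 lower for KO over WT in SSt, 5 higher with CMS, 42 higher for the FBS response and 45 and 3 for the CMS response. limma gave 1 higher in KO CMS and in KO CMS over FBS, 1 lower in SSt and 6 higher with CMS for KO over WT, 43 (pseudocount 1) and 42 (pseudocount 0.1) higher for the FBS response and 45 for the CMS response. Without replicate 1 of KO FBS and of KO CMS, an alternative chosen after seeing the data as were library totals and summed copies, 3 were higher in KO CMS and 10 in KO CMS over FBS.

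Same-numbered libraries did not deviate together (correlations of -0.137 to 0.146 over 18 pairs, against -0.205 to 0.252 for other numbers). The numbers thus gave no sign of pairing, but with 3 libraries per group this cannot exclude a small shared effect. The replicate block gave 3 higher in KO CMS, 0 lower in WT CMS over FBS, and 2 and 1 in KO CMS over FBS. Leaving out 1 library gave ranges, higher and lower, of 5 to 7 and 40 to 42 in WT FBS, 5 to 9 and 41 to 44 in WT CMS, 0 to 1 lower in WT CMS over FBS, 0 to 4 and 52 to 54 in KO FBS, 2 to 3 and 46 to 49 in KO CMS, and 1 to 8 and 1 to 5 in KO CMS over FBS. For KO over WT they were 28 to 34 and 2 in SSt, 5 to 8 and 4 to 5 with FBS, and 7 to 13 and 6 to 9 with CMS, and for the responses 19 to 24 and 2 to 4 with FBS and 25 to 31 and 5 to 7 with CMS. The 0 in KO FBS came without replicate 3 of KO SSt. The causes were not tested.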
